A study of Mus musculus with 53 samples.

Results

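Complex I, the NADH:ubiquinone oxidoreductase, was followed through 42 nuclear genes in RNA of adult mouse hearts. They were all rows of the deposited expression table whose symbol starts with Nduf and is not marked as a pseudogene, 42 of 34306 rows. RNA came in 2 fractions. Input was cytoplasmic RNA as a whole. TRAP, for translating ribosome affinity purification, was RNA pulled down with the ribosomes of those cells that carry a tagged ribosomal protein. Male mice had surgery in which a ligature narrowed the ascending aorta around a needle, which loads the left ventricle with pressure (band), or the same operation without the ligature (sham). All operated hearts in the table came from CAG mice, whose tag the labels of the series' first deposit describe as made in every lineage.

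The groups were band TRAP, band input, sham TRAP and sham input, with 2 libraries each, all from CAG hearts, and Tie2 TRAP, Tie2 input, CAG TRAP and CAG input from hearts without surgery, with 1 library each. In Tie2 mice, per the same labels, Tie2-Cre switches the tag on in endothelial cells; Tie2-Cre is known to act in some blood cells as well. For mice without surgery no sex was given, and the mixed 129/C57BL background was stated for the first deposit alone, which was not analysed here. RNA was pooled before library preparation, and nothing says that the replicates of a group came from separate mice, so p-values measure the spread between these libraries. All values are reads per kilobase of 1 listed transcript, scaled to the library (RPKM). They rest on 26568988 to 94878619 gene reads a library and on at least 250 reads for each gene in each library.

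Complex I is the entry point of the respiratory chain: it takes electrons from NADH, hands them to ubiquinone and pumps protons across the inner mitochondrial membrane. An L-shaped particle, it has a matrix arm, made of the N module that oxidises NADH and the Q module that reduces ubiquinone, and a membrane arm that holds the proton pumps. The pumps are encoded by mitochondrial DNA and made on mitochondrial ribosomes, whereas the Nduf proteins are made on cytosolic ribosomes and imported. Heart muscle, packed with mitochondria, is among the tissues richest in this enzyme.

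The Nduf genes took up 7.02 and 7.42% of all gene reads in band TRAP, against 4.21 and 4.27% in band input. After sham surgery the shares were 7.67 and 7.50% in TRAP, against 4.44 and 4.70% in input. Tie2 TRAP gave 1.17%, against 8.14% in CAG TRAP, while Tie2 input gave 5.39%, against 4.64% in CAG input. These inputs differed in makeup: mitochondrially encoded RNA was 3.17% of reads in Tie2 input and 14.3% in CAG input. Its part in the input shares was not tested. So complex I messages filled more of the ribosome-bound RNA than of the input RNA wherever the tag was in every lineage, and far less of it where the tag was in endothelial cells.

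**Figure D1:**
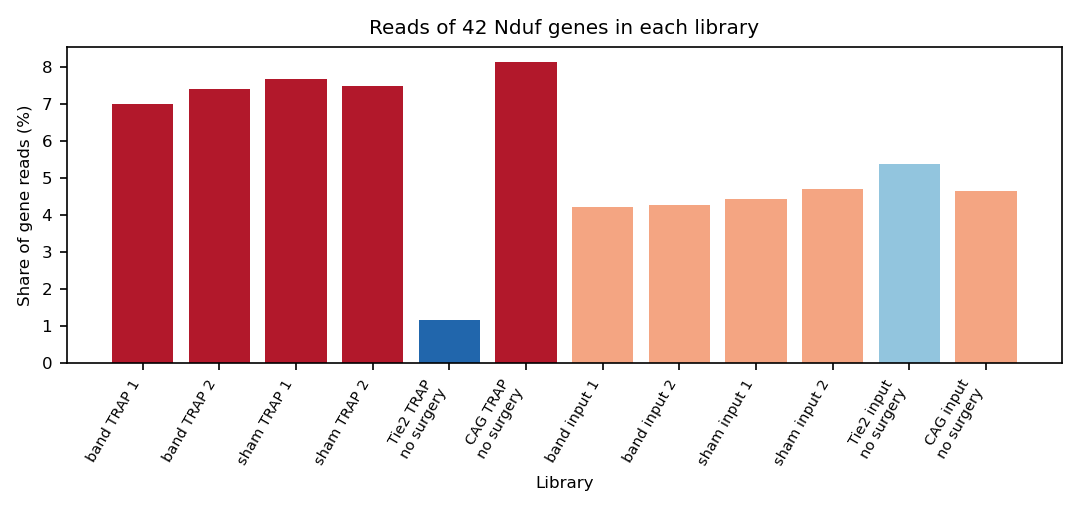
Share of gene reads (%) that fell on the 42 Nduf genes, 1 bar a library. The 5 CAG TRAP libraries stand at 7.02 to 8.14%, the 6 input libraries at 4.21 to 5.39% and Tie2 TRAP at 1.17%.

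Levels ranged widely among the members. In sham input, averages ran up to 6860.5 ± 839 RPKM for Ndufa4, 5974 ± 219 RPKM for Ndufa1 and 4013 ± 211 RPKM for Ndufa3, and down to 11.1 ± 1.249 RPKM for the assembly factor Ndufaf1 (mean ± SD, n = 2). These levels are per length of the transcript that the table lists, which was 419 to 4435 bases with a median of 1014.5. Ndufb7, at 4435 bases, Ndufb2, at 4371 bases, and Ndufab1, at 3479 bases, are listed by long transcripts although their proteins are small, so their level per length may be set low by the listing. Differences between libraries for 1 gene do not depend on that length.

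In sham hearts 34 of the 42 genes were called higher in TRAP than in input and 0 were called lower, at a limma adjusted p under 0.05 over 11654 tested genes, of which 15.1% were called higher and 24.5% lower. All 42 passed the filter on low values, 37 had an unadjusted p under 0.05, all 37 higher, and voom with limma on the recovered reads called 35 higher and 0 lower. The median log2 fold change of the members was 0.68, against -0.09 for all tested genes. Genes called higher were found in each part of the particle. They were 5 of 8 in the N module, 8 of 8 in the Q module, 8 of 9 in the proximal membrane arm, 10 of 10 in the distal membrane arm and 2 of 4 among the assembly factors. Input and TRAP RNA also differed in makeup. Mitochondrially encoded RNA made up 13.7 to 15.9% of reads in input and 0.0259 to 0.293% in TRAP of the CAG hearts, and 6 of 7 fibroblast, 4 of 5 leukocyte, 5 of 6 smooth muscle and 5 of 5 erythroid markers were called lower in sham TRAP. Of 8 cardiomyocyte markers 2 were called higher and 2 lower, and of 8 endothelial markers 0 were called either way. The summed level of those 8 cardiomyocyte markers was 75451 and 72679 RPKM in sham TRAP, against 60716 and 60464 RPKM in sham input, with no marker of these lists at 0. Most of each sum was Tnnt2, Myl2 and Mb, of which Mb alone was called higher. The 2 called lower were Myh6 and Ryr2. The part of this makeup in the result was not tested, and in such bulk RNA fewer cells of a type and less RNA per cell cannot be told apart. With each library rescaled to its reads outside mitochondrial and haemoglobin genes, the median of all tested genes moved to -0.26 and 27 members stayed higher, while all tested genes split into 894 higher and 4516 lower, against 1763 and 2852 as deposited. Quantile normalization gave 29 members higher and 0 lower, with 2053 of all tested genes higher and 1851 lower.

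The N module holds the flavin and iron-sulfur sites that take electrons from NADH. Ndufv1, which binds the flavin and NADH, stood at 604 and 698 RPKM in sham TRAP and 557 and 554 RPKM in sham input and was not called (log2 fold change 0.22 ± 0.11 SE, limma adjusted p = 0.133). All 4 values lay close together, with the TRAP libraries above the input libraries. Ndufv2, an iron-sulfur subunit beside it, had 1233 and 1538 RPKM in sham TRAP and 723 and 721 RPKM in sham input, and rose 1.91-fold in TRAP (log2 fold change 0.93 ± 0.16 SE, limma adjusted p = 0.00487). Ndufv3, a small accessory subunit of the same tip, had 3484 and 3455 RPKM in sham TRAP and 1639.9 and 1783 RPKM in sham input, and was 2.03-fold higher (log2 fold change 1.02 ± 0.08 SE, limma adjusted p = 0.00045). The groups stood far apart in both of these genes. Ndufs1, the largest subunit, with several iron-sulfur clusters, stood apart from its neighbours: it had 71.9 and 72.6 RPKM in sham TRAP and 93.6 and 91.8 RPKM in sham input. Its log2 fold change of -0.36 ± 0.23 SE was not called (limma adjusted p = 0.261), although both TRAP libraries lay below both input libraries, the only member in which they did. Of the other 4 genes of this module, Ndufs4, Ndufs6 and Ndufa2 were called higher and Ndufa12 was not (limma adjusted p = 0.0571).

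The Q module passes electrons along a chain of iron-sulfur clusters to ubiquinone. Ndufs7, which carries the last cluster before ubiquinone, had 1233 and 1237 RPKM in sham TRAP and 713 and 693 RPKM in sham input, 1.76-fold higher in TRAP (log2 fold change 0.81 ± 0.10 SE, limma adjusted p = 0.0015). Ndufs8, another iron-sulfur subunit, had 1371 and 1368 RPKM in sham TRAP and 919 and 868 RPKM in sham input, 1.53-fold higher (limma adjusted p = 0.0161). Ndufs3, which links the modules, had 670.0 and 685 RPKM in sham TRAP and 403 and 414 RPKM in sham input, 1.66-fold higher (limma adjusted p = 0.000914). In these 3 genes the replicates of each fraction nearly coincided and the fractions were well apart. The accessory subunits Ndufa5, Ndufa6, Ndufa7 and Ndufa9 were called higher as well, by log2 fold changes of 0.42 to 0.74.

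The proximal membrane arm joins the matrix arm to the proton pumps. Ndufc1, a small membrane subunit, showed the highest TRAP to input fold change of the 42 genes after sham surgery: 2931 and 2731 RPKM in sham TRAP and 1084 and 1530.2 RPKM in sham input, 2.20-fold higher (log2 fold change 1.14 ± 0.17 SE, limma adjusted p = 0.00288). Its input libraries were themselves far apart, and both TRAP libraries lay above both. Ndufa13, also known as GRIM-19, had 1705 and 1799.6 RPKM in sham TRAP and 867 and 898 RPKM in sham input, 1.98-fold higher (limma adjusted p = 0.000602). Ndufa10, a subunit at the base of the arm, was the exception: 475 and 457 RPKM in sham TRAP and 402 and 401 RPKM in sham input, a log2 fold change of 0.21 ± 0.08 SE that was not called (limma adjusted p = 0.0699). Ndufa1, Ndufa3, Ndufa8, Ndufa11, Ndufc2 and Ndufs5 lay between, with log2 fold changes of 0.58 to 0.78, and all were called higher.

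Every measured gene of the distal membrane arm, mostly small subunits around the far proton pumps, was higher in TRAP. Ndufb6 led with 2237 and 2218 RPKM in sham TRAP and 1084 and 1111 RPKM in sham input, 2.03-fold higher (log2 fold change 1.02 ± 0.15 SE, limma adjusted p = 0.00265). Ndufb8 had 2259.8 and 2247 RPKM in sham TRAP and 1163 and 1131 RPKM in sham input, 1.96-fold higher, and Ndufb11 had 2839 and 2613 RPKM in sham TRAP and 1470.2 and 1514 RPKM in sham input, 1.82-fold higher. In all 3 genes both TRAP libraries lay far above both input libraries. Ndufb2 had 167 and 141 RPKM in sham TRAP and 67.9 and 90.7 RPKM in sham input, 1.95-fold higher, and Ndufb7 had 609 and 613 RPKM in sham TRAP and 303 and 335 RPKM in sham input, 1.91-fold higher. The limma adjusted p was 0.00103 for Ndufb7 and 0.00383 for Ndufb2. Ndufb3 moved least: 2911 and 2744 RPKM in sham TRAP and 2140.4 and 2074 RPKM in sham input, 1.34-fold higher (limma adjusted p = 0.00638). Reads of Ndufb4 are uncertain, since the table also lists a near-identical copy, Gm3244, now named Ndufb4c, at 1594 and 1758 RPKM in sham TRAP and 1059 and 1179 RPKM in sham input. Copies of Ndufa11 and Ndufa12, Gm4943 and Gm15920, are listed as well.

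Ndufab1, the mitochondrial acyl carrier protein, serves fatty acid synthesis as well as complex I. It had 201 and 195 RPKM in sham TRAP and 154 and 178 RPKM in sham input and was not called (limma adjusted p = 0.144). Ndufa4, first described in complex I and now assigned to cytochrome oxidase, had 10121 and 9180.4 RPKM in sham TRAP and 6267 and 7454 RPKM in sham input, 1.41-fold higher (log2 fold change 0.50 ± 0.11 SE, limma adjusted p = 0.0138). Its paralog Ndufa4l2, known as a hypoxia-induced gene, was far lower, at 40.8 and 34.0 RPKM in sham TRAP and 32.7 and 34.3 RPKM in sham input, and was not called (limma adjusted p = 0.571); its groups overlapped.

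Assembly factors help build the enzyme and leave it. Ndufaf2 had 219.6 and 241 RPKM in sham TRAP and 135 and 136 RPKM in sham input, 1.69-fold higher (log2 fold change 0.76 ± 0.10 SE, limma adjusted p = 0.00175), and Ndufaf3 had 73.1 and 79.1 RPKM in sham TRAP and 47.9 and 46.7 RPKM in sham input, 1.60-fold higher (limma adjusted p = 0.00166). Ndufaf4 had 16.4 and 19.8 RPKM in sham TRAP and 14.4 and 14.7 RPKM in sham input, not called (limma adjusted p = 0.0986), and Ndufaf1 had 10.4 and 11.96 RPKM in sham TRAP and 10.2 and 12 RPKM in sham input, not called (limma adjusted p = 0.99). The groups of Ndufaf1 overlapped fully. Another 4 factors, Ndufaf5 to Ndufaf8, are in the table under older symbols and so are not among the 42 genes: 3 of them were called higher in sham TRAP, and Ndufaf8, listed as 1810043H04Rik, had 188 and 186 RPKM in sham TRAP and 113 and 128 RPKM in sham input. Of 11 further assembly factors without an Nduf symbol, 4 were called higher, among them Tmem70 with 41.2 and 47.3 RPKM in sham TRAP and 22.2 and 24.2 RPKM in sham input, and 0 lower.

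The same contrast in band hearts also gave 34 of 42 genes higher and 0 lower, where 16.6% of all tested genes were called higher and 26.0% lower; 36 had an unadjusted p under 0.05, all 36 higher, and voom with limma called 35 higher and 0 lower. Both contrasts called 32 genes. Ndufs4 and Ndufs8 passed the threshold in sham hearts alone, Ndufab1 and Ndufaf4 in band hearts alone, and Ndufa10, Ndufa12, Ndufa4l2, Ndufaf1, Ndufs1 and Ndufv1 in neither. A different set past the threshold does not show a different effect, and the difference itself is tested with the banding results. Leading the list, Ndufb4 had 2306 and 1934 RPKM in band TRAP and 721 and 711 RPKM in band input, 2.95-fold higher, and Ndufc1 had 3355 and 3024 RPKM in band TRAP and 1196 and 1042 RPKM in band input, 2.85-fold higher. Ndufb2 followed with 208 and 195 RPKM in band TRAP and 76.8 and 69.0 RPKM in band input, 2.74-fold higher (limma adjusted p = 0.000756, against 0.000869 for Ndufc1 and 0.000931 for Ndufb4). In all 3 genes the lower TRAP library was over 2 times the higher input library. Ndufv3 at 3229 and 3419 RPKM in band TRAP and 1483 and 1502 RPKM in band input was 2.23-fold higher, and Ndufa13 at 1784 and 1983 RPKM in band TRAP and 828 and 871 RPKM in band input was 2.21-fold higher. Ndufb7, Ndufv2, Ndufb9, Ndufb8 and Ndufa7 completed the 10 highest, with folds of 1.86 to 1.94. Their values were 571 and 665 RPKM in band TRAP and 312 and 322 RPKM in band input for Ndufb7, 1621 and 1205 RPKM in band TRAP and 742 and 721 RPKM in band input for Ndufv2, 3622 and 2902 RPKM in band TRAP and 1706 and 1696 RPKM in band input for Ndufb9, 1579 and 2236 RPKM in band TRAP and 974 and 1014 RPKM in band input for Ndufb8 and 1834 and 1914 RPKM in band TRAP and 987 and 1029 RPKM in band input for Ndufa7. The spread between the band TRAP libraries was wide in Ndufv2 and Ndufb8 and narrow in Ndufa7.

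Among the core subunits of band hearts, Ndufs3 had 692 and 651 RPKM in band TRAP and 426 and 419 RPKM in band input and Ndufs7 had 987 and 1158 RPKM in band TRAP and 708 and 757 RPKM in band input. Both were called higher, by 1.59-fold and 1.46-fold. Ndufv1 had 695 and 599.9 RPKM in band TRAP and 553 and 541 RPKM in band input and was not called (limma adjusted p = 0.109). Ndufs8 had 928 and 1269.8 RPKM in band TRAP and 768 and 857 RPKM in band input, not called (limma adjusted p = 0.056), and Ndufs1 had 91.2 and 51.8 RPKM in band TRAP and 89.2 and 76.6 RPKM in band input, not called (limma adjusted p = 0.395). In Ndufs1, band TRAP 1 lay above both input libraries and band TRAP 2 below both. Without band TRAP 1, 38 members were called higher and 2 lower (Ndufs1 and Ndufaf1), against 19.3% and 34.5% of all tested genes. Without band TRAP 2, 36 were called higher and 0 lower, against 21.4% and 25.4%.

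Ndufa4 had 10379 and 9351 RPKM in band TRAP and 6396 and 6457 RPKM in band input, 1.53-fold higher (limma adjusted p = 0.00556), while Ndufa4l2 had 25.6 and 39.6 RPKM in band TRAP and 27.3 and 28.9 RPKM in band input and was not called (limma adjusted p = 0.485). The assembly factors Ndufaf2, with 229 and 199 RPKM in band TRAP and 136 and 132 RPKM in band input, Ndufaf3, with 61.4 and 63.0 RPKM in band TRAP and 44.2 and 48.1 RPKM in band input, and Ndufaf4, with 21.5 and 17.6 RPKM in band TRAP and 13.9 and 13.7 RPKM in band input, were called higher. Ndufaf1 had 14.7 and 5.40 RPKM in band TRAP and 11.4 and 9.73 RPKM in band input and was not called (limma adjusted p = 0.686).

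**Figure D2:**
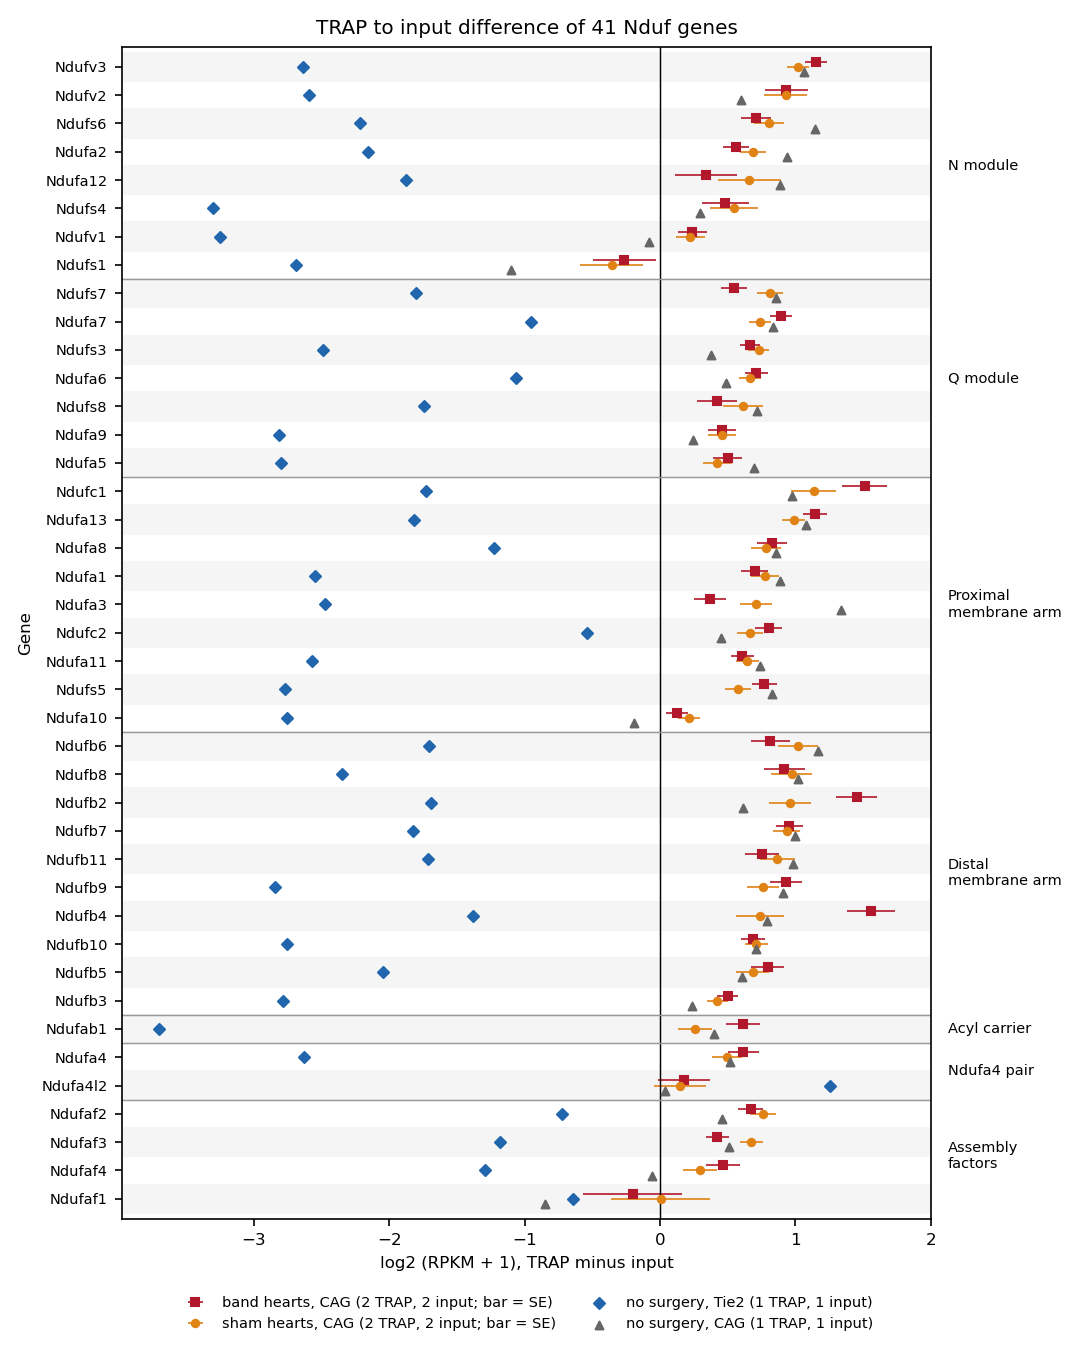
TRAP minus input difference in log2 (RPKM + 1) for 41 Nduf genes, grouped by place in complex I. Squares (band) and circles (sham) are means of CAG libraries with the standard error of the fit; diamonds (Tie2) and triangles (CAG without surgery) are single pairs of libraries. Most CAG values lie between 0 and 1.5, and all Tie2 values drawn lie below 0 except that of Ndufa4l2, at 1.26.

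Shorter transcripts were on the whole higher in TRAP than longer ones, so each member was set beside the tested genes whose listed length was at most 25% longer or 20% shorter than its own, 477 to 3045 genes. In sham hearts the median of those like-length medians was 0.21, against 0.68 for the members, a difference of 0.47 with a replicate SD of 0.024, and 39 of 42 members lay above the median for their own length. On average 27.3% of the genes of like length were called higher and 12.3% lower. In band hearts the difference was 0.48 with a replicate SD of 0.063, again with 39 of 42 above, and 29.1% of the genes of like length were called higher and 15.4% lower. The comparison was also restricted to genes with a similar mean level over all libraries, TRAP as well as input, within 1 log2 unit. That left as few as 8 genes for a member and lowered the difference to 0.39 in band hearts and 0.28 in sham hearts. Quantile normalization lowered it to 0.24 in band hearts and 0.28 in sham hearts. Ndufb2 and Ndufb7, among the longest listed transcripts, stood 1.20 and 1.18 log2 units above their like-length medians in sham hearts. Those medians were -0.235 for Ndufb2 and -0.242 for Ndufb7. Both genes are listed by transcripts that are long for their small proteins, so these 2 differences depend on the listed length. Shorter transcripts of these genes were not tested. Ndufs1, at 2918 bases, stood 0.24 below, and Ndufaf1 and Ndufa4l2 were the other 2 genes below.

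**Figure D3:**
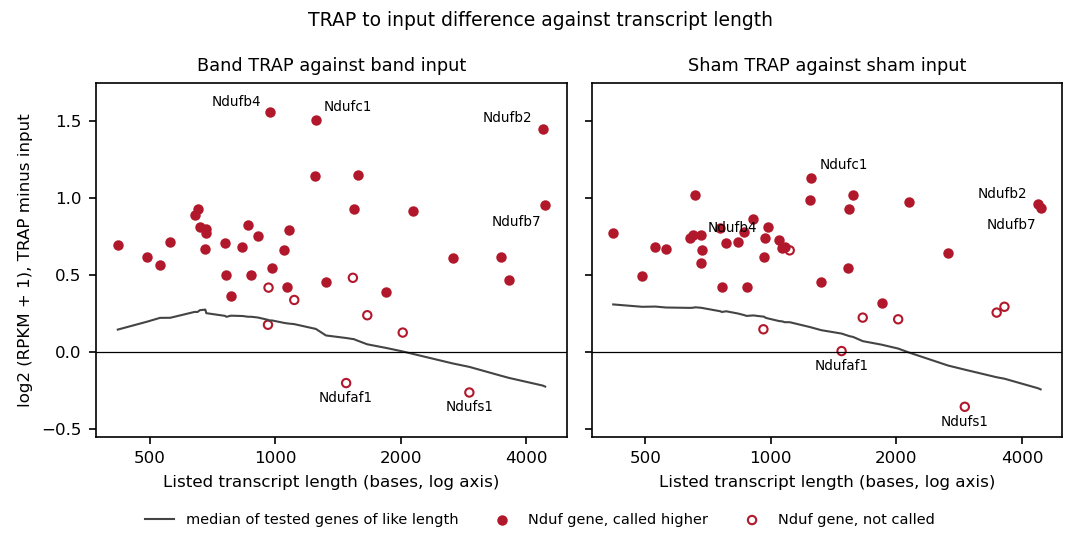
TRAP minus input difference in log2 (RPKM + 1) against listed transcript length (log axis), in band hearts on the left and sham hearts on the right, 1 point a gene. The line is the median of tested genes of like length. In sham hearts it falls with length on the whole. In band hearts it rises from 0.15 at 419 bases to 0.28 at 679 bases and on the whole falls beyond that. In each panel 39 of 42 Nduf genes lie above the line.

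Across the 42 members the fold change in sham hearts was loosely related to length (Pearson r = -0.22, Spearman rho = -0.14) and more closely to the input level (Pearson r = 0.47, Spearman rho = 0.35). These points share libraries, so the coefficients are descriptions. The fold changes of sham hearts followed those of the unoperated CAG pair (Pearson r = 0.88, Spearman rho = 0.81, n = 42 genes), which comes from other libraries.

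Other nuclear genes of the respiratory chain were mostly called higher as well. Of 47 tested genes of complexes II to V, 34 were called higher in band TRAP and 33 in sham TRAP, with median log2 fold changes of 0.59 in band hearts and 0.58 in sham hearts. Of 75 mitochondrial ribosomal protein genes, 52 were called higher in band TRAP and 49 in sham TRAP. No test was made of the difference between these lists and the Nduf genes. The 7 complex I subunits encoded by mitochondrial DNA went the other way: all 7 were called lower in TRAP, by a median log2 fold change of -7.18 in band hearts and -6.09 in sham hearts. The proton-pump subunit mt-Nd4 had 97.0 and 292 RPKM in sham TRAP and 10068 and 7138 RPKM in sham input, and mt-Nd1, which sits where ubiquinone is bound, had 135 and 253 RPKM in sham TRAP and 15320.3 and 13807 RPKM in sham input. In both genes the TRAP libraries lay far below the input libraries.

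Banding did not move any Nduf gene past the threshold in either fraction. In input RNA 0 of 42 were called higher and 0 lower, against 2.44% and 1.65% of all tested genes; 2 members had an unadjusted p under 0.05, and voom with limma on the recovered reads called 0. The median log2 fold change was -0.07, with a range from -0.26 for Ndufb6 to 0.14 for Ndufs4, and 32 of 42 values were below 0; the genes named at the ends of the banding comparisons were chosen after their values were seen. Band and sham libraries did not overlap in 21 genes, 19 of them lower in band hearts and 2 higher, where 31.1% of all tested genes were lower and 28.7% higher without overlap. The members lay 0.09 log2 units below genes of like length, with a replicate SD of 0.019, and 9 of 42 lay above the median for their length. In the same comparison leukocyte markers were above 0 in 5 of 5 tested, with 1 called higher, endothelial markers were below 0 in 7 of 8, with 0 called, and erythroid markers were below 0 in 5 of 5, with 1 called lower; their part in the shift was not tested. The difference from genes of like length was -0.06 without sham input 2 and -0.13 without sham input 1. Each of these moves was larger than the replicate SD, which rests on 2 libraries a group. Ndufb6 had 923 and 904 RPKM in band input and 1084 and 1111 RPKM in sham input (log2 fold change -0.26 ± 0.15 SE, limma adjusted p = 0.389), and Ndufs4, whose loss causes a mitochondrial disease modelled in mice, had 265 and 283 RPKM in band input and 245 and 252 RPKM in sham input (log2 fold change 0.14 ± 0.18 SE, limma adjusted p = 0.742). Ndufb9, Ndufb7 and Ndufaf2 had the differences closest to 0. Their values were 1706 and 1696 RPKM in band input and 1649 and 1753 RPKM in sham input for Ndufb9, 312 and 322 RPKM in band input and 303 and 335 RPKM in sham input for Ndufb7 and 136 and 132 RPKM in band input and 135 and 136 RPKM in sham input for Ndufaf2. Of 5 genes known to answer pressure load, 2 were called higher in band input and 0 lower: Nppb, the natriuretic peptide gene raised by wall stress, had 3081 and 3514 RPKM in band input and 872 and 865 RPKM in sham input, and Ankrd1, a stretch-induced muscle gene, had 3407 and 2762 RPKM in band input and 1227 and 1197 RPKM in sham input. The other 3, Nppa, Acta1 and Myh7, were not called, at log2 fold changes of 1.31 for Nppa, 0.69 for Acta1 and -0.17 for Myh7.

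In TRAP RNA 0 of 42 genes were again called higher and 0 lower, against 2.21% and 1.56% of all tested genes; 8 members had an unadjusted p under 0.05, and voom with limma called 1 higher, Ndufb4. The median log2 fold change was -0.06. Groups did not overlap in 15 genes that were lower in band hearts and in 6 that were higher, where the shares of all tested genes were 22.4% and 21.9%. Ndufb4 lay at the top with 2306 and 1934 RPKM in band TRAP and 1248 and 1109 RPKM in sham TRAP (log2 fold change 0.84 ± 0.18 SE, limma adjusted p = 0.0504). Both band libraries lay above both sham libraries, yet its copy Ndufb4c had 1938 and 1570.0 RPKM in band TRAP and 1594 and 1758 RPKM in sham TRAP, which overlap. Ndufb2 with 208 and 195 RPKM in band TRAP and 167 and 141 RPKM in sham TRAP and Ndufab1 with 281 and 224 RPKM in band TRAP and 201 and 195 RPKM in sham TRAP came next, at log2 fold changes of 0.38 and 0.34. At the low end stood Ndufa12, a subunit of the N module, with 775 and 1354 RPKM in band TRAP and 1599 and 1467 RPKM in sham TRAP (log2 fold change -0.58 ± 0.23 SE, limma adjusted p = 0.226). Ndufa3 had 4182 and 5238 RPKM in band TRAP and 6685 and 6449 RPKM in sham TRAP (log2 fold change -0.49 ± 0.12 SE, limma adjusted p = 0.0751), and Ndufb6 had 1364 and 1899 RPKM in band TRAP and 2237 and 2218 RPKM in sham TRAP (log2 fold change -0.47 ± 0.15 SE, limma adjusted p = 0.138). In each of these 3 genes both band libraries lay below both sham libraries, with band TRAP 1 the lower. Gm15920, the listed copy of Ndufa12, had 609 and 794 RPKM in band TRAP and 848 and 828 RPKM in sham TRAP. How reads were split between Ndufa12 and this copy was not tested. Ndufa11, Ndufs5 and Ndufv1 had the differences closest to 0. They had 436 and 470.2 RPKM in band TRAP and 461 and 445 RPKM in sham TRAP for Ndufa11, 3249.9 and 3372 RPKM in band TRAP and 3491 and 3162 RPKM in sham TRAP for Ndufs5 and 695 and 599.9 RPKM in band TRAP and 604 and 698 RPKM in sham TRAP for Ndufv1.

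The band TRAP libraries differed from each other more than replicates of any other group. The median difference between them over the members was 0.215 log2 units, against 0.0551 to 0.0652 in the other 3 operated groups, and 6 of 42 differed by over 0.5. Ndufaf1 was at 14.7 RPKM in band TRAP 1 and 5.40 RPKM in band TRAP 2, and Ndufs1 was at 91.2 RPKM in band TRAP 1 and 51.8 RPKM in band TRAP 2. Ndufa12 went the opposite way, at 775 RPKM in band TRAP 1 and 1354 RPKM in band TRAP 2. So the members did not shift together between these libraries. Over all tested genes 15.8% differed by over 0.5 between them. The summed level of 8 endothelial markers was 1685 RPKM in band TRAP 1 and 846 RPKM in band TRAP 2, against 967 and 966 RPKM in sham TRAP. Most of each sum was Fabp4, at 1603 and 785 RPKM in band TRAP and 879 and 876 RPKM in sham TRAP. Tie1 was nearly level, at 9.85 RPKM in band TRAP 1 and 9.92 RPKM in band TRAP 2. Each of the other endothelial markers was higher in band TRAP 1 than in band TRAP 2. In band TRAP 2 all 8 markers lay below both sham TRAP libraries, while in band TRAP 1 some lay above and some below. Pecam1 had 18.9 and 16.4 RPKM in band TRAP and 19.7 and 18.8 RPKM in sham TRAP. Emcn had 5.61 and 2.89 RPKM in band TRAP and 5.11 and 4.56 RPKM in sham TRAP. The part of this spread or of these markers in the results was not tested. The calls turned on which library was kept. Without band TRAP 2, 4 members were called higher in band than in sham TRAP (Ndufab1, Ndufb4, Ndufb9 and Ndufs4) and 11 lower, against 9.34% and 7.57% of all tested genes. Ndufa12, Ndufa3, Ndufb6 and Ndufs8 were among the 11. Without band TRAP 1, Ndufb4 was called higher and Ndufa3, Ndufaf1 and Ndufs1 lower, against 4.92% and 9.34% of all tested genes. With either library left out, Ndufb4 was higher and Ndufa3 lower, each time with the band group resting on 1 library whose spread is taken from the other groups.

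**Figure D4:**
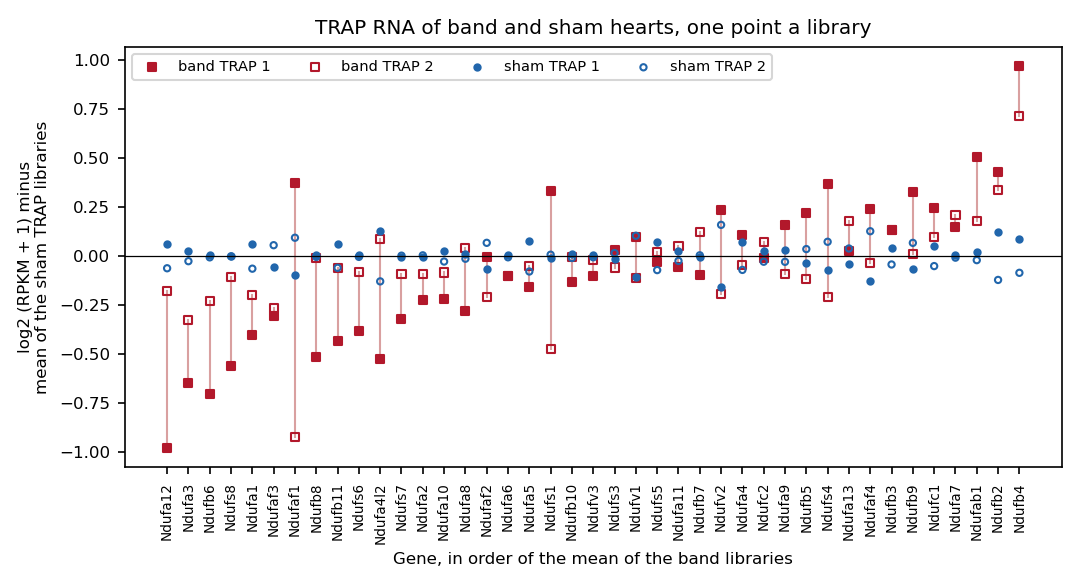
Level of 41 Nduf genes in the 2 band TRAP and 2 sham TRAP libraries, as log2 (RPKM + 1) minus the mean of the sham TRAP libraries; a line joins the band libraries. Sham points lie near 0 and band points are spread to both sides, with Ndufb4 above and Ndufa12, Ndufa3 and Ndufb6 below in both band libraries.

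Whether banding altered the TRAP to input ratio was tested as an interaction. It called 0 of 42 members, as it called 0.0% of all tested genes in either direction; 1 member had an unadjusted p under 0.05, and voom with limma called 0. Ndufb4 had the highest value (log2 difference 0.82 ± 0.25 SE, limma adjusted p = 0.901) and Ndufa3 the lowest (-0.34 ± 0.17 SE, limma adjusted p = 0.992). Without band TRAP 2 the interaction called 1 member, Ndufa12, lower, and 0.154% of all tested genes higher and 0.515% lower. Ndufa9, Ndufv2 and Ndufv1 had the smallest interaction. In Ndufa9, 639 and 537 RPKM in band TRAP and 412 and 441 RPKM in band input stood beside 584 and 561 RPKM in sham TRAP and 418 and 415 RPKM in sham input.

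In hearts without surgery, 1 library a side, there was no replicate check and no test. The unoperated CAG pair held 36 of 42 ratios of TRAP to input above 1, with a median of 1.63; 6 genes were over 2-fold higher and 1 over 2-fold lower, against 1.98% and 20.5% of the genes compared. Highest was Ndufa3, a membrane-arm subunit, with 11913 RPKM in CAG TRAP and 4724 RPKM in CAG input. Ndufb6 had 1673 RPKM in CAG TRAP and 745 RPKM in CAG input, Ndufs6 7158 RPKM in CAG TRAP and 3230.2 RPKM in CAG input, Ndufa13 1582 RPKM in CAG TRAP and 749.7 RPKM in CAG input and Ndufv3 3930.4 RPKM in CAG TRAP and 1880.2 RPKM in CAG input. Lowest was Ndufs1, with 39.8 RPKM in CAG TRAP and 86.8 RPKM in CAG input, followed by Ndufaf1 at 6.08 RPKM in CAG TRAP and 11.8 RPKM in CAG input. Ndufa10 at 337 RPKM in CAG TRAP and 384 RPKM in CAG input and Ndufv1 at 451 RPKM in CAG TRAP and 478 RPKM in CAG input also lay below 1.

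Tie2 hearts gave the reverse picture. In Tie2 TRAP 41 of 42 Nduf genes lay below their level in Tie2 input, 37 of them over 2-fold, against 16.8% of the genes compared; 1 was over 2-fold higher, against 39.3%. The median inverse ratio was 4.31, whereas the genes of like length had a median log2 ratio of 0.52. Ndufab1 was lowest, with 14.4 RPKM in Tie2 TRAP and 200.1 RPKM in Tie2 input, 13.9-fold lower. Ndufs4 had 44.9 RPKM in Tie2 TRAP and 453 RPKM in Tie2 input, and Ndufv1 74.03 RPKM in Tie2 TRAP and 713 RPKM in Tie2 input. Ndufb9 at 378 RPKM in Tie2 TRAP and 2729 RPKM in Tie2 input and Ndufa9 at 61.4 RPKM in Tie2 TRAP and 439 RPKM in Tie2 input completed the lowest 5. Of these 5 genes Ndufs4 and Ndufv1 belong to the N module, where 8 of 8 genes were over 2-fold lower. So were 10 of 10 in the distal membrane arm, 8 of 9 in the proximal membrane arm and 7 of 8 in the Q module. The N module had a median inverse ratio of 6.16, the proximal membrane arm 5.58, the distal membrane arm 3.86 and the Q module 3.58. Other core subunits were lower too: Ndufv2 had 134 RPKM in Tie2 TRAP and 817 RPKM in Tie2 input, Ndufs1 11.5 RPKM in Tie2 TRAP and 79.9 RPKM in Tie2 input and Ndufs3 84.7 RPKM in Tie2 TRAP and 479 RPKM in Tie2 input. Ndufs7 had 236 RPKM in Tie2 TRAP and 826 RPKM in Tie2 input, and Ndufs8 239 RPKM in Tie2 TRAP and 803 RPKM in Tie2 input.

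Ndufa4l2 was the one member higher in Tie2 TRAP, with 81.8 RPKM in Tie2 TRAP and 33.7 RPKM in Tie2 input, 2.43-fold higher. Its paralog Ndufa4 had 1525 RPKM in Tie2 TRAP and 9461 RPKM in Tie2 input, 6.20-fold lower. The pair thus differed in direction in these libraries. Least lowered were Ndufc2, a membrane-arm subunit, at 526 RPKM in Tie2 TRAP and 766 RPKM in Tie2 input, and the assembly factors Ndufaf2, at 92.4 RPKM in Tie2 TRAP and 153 RPKM in Tie2 input, and Ndufaf1, at 4.37 RPKM in Tie2 TRAP and 7.38 RPKM in Tie2 input. Ndufa7 followed at 620.3 RPKM in Tie2 TRAP and 1200.0 RPKM in Tie2 input. Ndufaf3 had 34.8 RPKM in Tie2 TRAP and 80.2 RPKM in Tie2 input, and Ndufaf4 3.67 RPKM in Tie2 TRAP and 10.4 RPKM in Tie2 input. The 4 assembly factors had a median inverse ratio of 2.00. Ndufaf8, listed under its older symbol, had 137 RPKM in Tie2 TRAP and 128 RPKM in Tie2 input.

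Set against CAG TRAP, Tie2 TRAP was lower in 41 of 42 genes, over 2-fold in 39, against 14.3% of the genes compared, and over 2-fold higher in 1, against 55.2%. Ndufab1 had 14.4 RPKM in Tie2 TRAP and 229 RPKM in CAG TRAP, 15.9-fold lower, and Ndufv3 had 271 RPKM in Tie2 TRAP and 3930.4 RPKM in CAG TRAP, 14.5-fold lower. Ndufa3, Ndufs4 and Ndufs6 followed, 11.3-fold, 10.6-fold and 9.84-fold lower. Ndufa4l2 was 2.88-fold higher in Tie2 TRAP. Ndufaf1, Ndufc2, Ndufaf2 and Ndufaf3 were 1.39, 1.403, 2.18 and 2.35-fold lower, the smallest differences. Cell type markers moved with this contrast. The summed level of 8 cardiomyocyte markers was 3881 RPKM in Tie2 TRAP, 79712 RPKM in Tie2 input and 82254 RPKM in CAG TRAP, and that of 8 endothelial markers was 12169 RPKM in Tie2 TRAP, 1317 RPKM in Tie2 input and 950.1 RPKM in CAG TRAP, with no marker of either list at 0. The summed level of the leukocyte markers was 1834 RPKM in Tie2 TRAP, 203 RPKM in Tie2 input and 122 RPKM in CAG TRAP, and that of the fibroblast markers was 603 RPKM in Tie2 TRAP, 235 RPKM in Tie2 input and 90.5 RPKM in CAG TRAP. Most of each endothelial sum was Fabp4, at 10760 RPKM in Tie2 TRAP, 1219 RPKM in Tie2 input and 887 RPKM in CAG TRAP. Each of the 8 endothelial markers was higher in Tie2 TRAP than in Tie2 input and CAG TRAP. Troponin Tnnt2, made by heart muscle, still stood at 1367 RPKM in Tie2 TRAP, against 15558 RPKM in CAG TRAP. The part of these cell types in the Nduf levels was not tested.

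**Figure D5:**
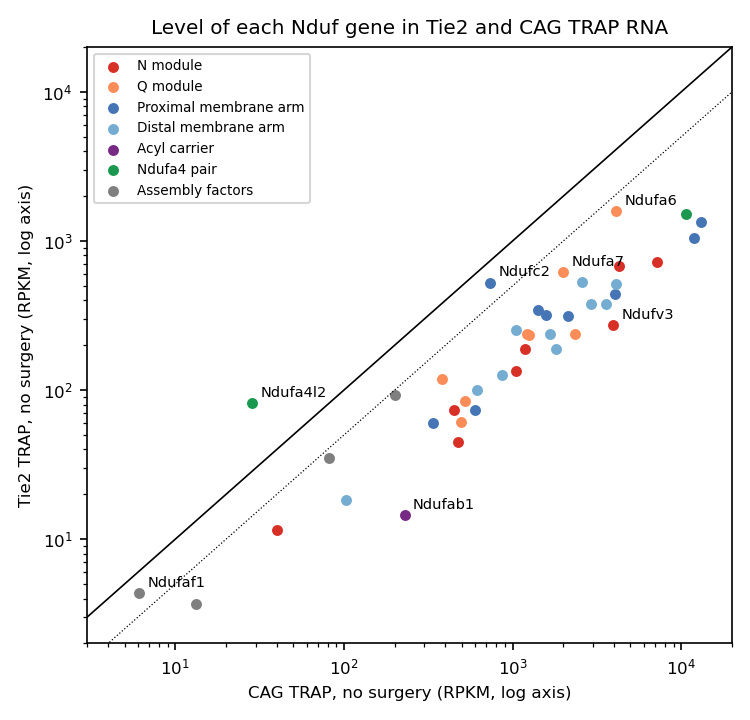
Level of each Nduf gene in Tie2 TRAP (vertical) and CAG TRAP (horizontal) of hearts without surgery, RPKM on log axes, 1 library each, coloured by place in complex I. The solid line marks equal levels and the dotted line a 2-fold lower level in Tie2; 39 of 42 genes lie below the dotted line and Ndufa4l2 alone lies above the solid one.

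Complex I genes lie scattered over the genome, on 15 chromosomes for the 37 members with a promoter in the RefSeq table used here (GRCm38.p6, a later build than that of the reads). Ndufa2, Ndufa4l2, Ndufb9 and Ndufs1 had none there. Each entry spans 250 bases before to 50 bases after a transcription start. Searches on both strands for short words known from promoters of respiratory genes found AAGATGGC, a word of the factor YY1, in 7 of 37 members (18.9%), against 3.19% of 27025 genes with a promoter. GCATGCGC, a word of NRF1, was in 4 (10.8%, against 3.05%), CCGGAAG, a word of GABPA, in 5 (13.5%, against 9.93%), AAGGTCA, a word of the oestrogen-related receptors, in 3 (8.11%, against 5.38%) and TATAAA in 4 (10.8%, against 15.7%). In all 7 members the YY1 word read along the gene and began 23 to 39 bases after the start; an along-the-gene copy after the start was present in 1.04% of all genes. The genes were Ndufa3, Ndufa9, Ndufb8, Ndufc1, Ndufs4, Ndufs6 and Ndufs7. The genes set beside the members were all those with a promoter, not only genes tested here, whereas every member was tested. A match of letters is neither a binding site nor a cause, and TRAP and input levels do not measure promoter activity. The YY1 word also holds the letters ATG, and whether it overlaps a start codon was not tested. Promoters of Ndufc1, Ndufb8 and Ndufs7, which were among the 10 members with the largest TRAP to input fold change in sham hearts, and of Ndufa6, with an NRF1 word, are shown 5′ to 3′ along the gene, with matched words in capitals. They lie at chr3:51408906-51409205, minus strand (Ndufc1), chr19:44555393-44555692, minus strand (Ndufb8), chr10:80249199-80249498, plus strand (Ndufs7) and chr15:82354242-82354541, minus strand (Ndufa6).
Ndufc1: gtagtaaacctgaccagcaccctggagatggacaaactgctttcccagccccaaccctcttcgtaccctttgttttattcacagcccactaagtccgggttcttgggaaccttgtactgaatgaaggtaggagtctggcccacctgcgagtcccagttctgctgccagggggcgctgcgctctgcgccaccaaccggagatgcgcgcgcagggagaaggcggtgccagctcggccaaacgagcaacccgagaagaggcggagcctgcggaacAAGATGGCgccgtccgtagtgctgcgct
Ndufb8: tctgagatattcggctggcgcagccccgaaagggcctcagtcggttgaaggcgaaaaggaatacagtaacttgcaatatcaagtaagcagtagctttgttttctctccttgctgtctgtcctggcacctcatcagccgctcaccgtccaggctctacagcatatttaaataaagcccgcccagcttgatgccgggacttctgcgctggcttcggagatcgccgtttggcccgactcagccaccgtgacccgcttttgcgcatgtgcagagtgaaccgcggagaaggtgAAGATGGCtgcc
Ndufs7: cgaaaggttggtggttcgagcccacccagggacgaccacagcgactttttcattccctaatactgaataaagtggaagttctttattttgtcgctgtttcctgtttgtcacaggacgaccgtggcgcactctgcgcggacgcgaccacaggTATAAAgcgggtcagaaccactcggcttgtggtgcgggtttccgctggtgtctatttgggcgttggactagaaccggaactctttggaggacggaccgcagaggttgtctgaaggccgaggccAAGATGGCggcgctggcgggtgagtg
Ndufa6: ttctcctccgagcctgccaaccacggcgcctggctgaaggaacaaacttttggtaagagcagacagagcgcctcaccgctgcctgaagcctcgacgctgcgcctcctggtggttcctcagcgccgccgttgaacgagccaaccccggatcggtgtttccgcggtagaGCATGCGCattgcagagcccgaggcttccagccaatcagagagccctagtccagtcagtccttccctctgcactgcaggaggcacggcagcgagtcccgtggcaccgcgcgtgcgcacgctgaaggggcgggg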

How the data were processed

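Poly(A)-selected, randomly primed RNA of mouse hearts was sequenced in 12 libraries of 8 groups, without strand marking per the labels' protocols. The later deposit lists 24 samples, and the labels do not say what the library suffixes of its titles mean. Per the submitters' processing notes the tools were CASAVA 1.8.2, TopHat 1.4 and HTSeq 0.5.3, with the genome build NCBIM37. The authors deposited RPKM per gene with the length of 1 listed transcript, in 1 table for all libraries; the table has 0 columns of other samples. All 233410 positive values gave whole reads within a tolerance of 0.02, which fixed the depth of each library at 26568988 to 94878619 gene reads.

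Genes with at least 1 RPKM in at least 2 libraries (11654) were fitted together over the 12 libraries by limma 3.58.1 (R 4.3.3) on log2(RPKM + 1), with 1 mean a group and no covariate, 4 residual degrees of freedom, and Benjamini-Hochberg adjustment over all genes, called at 0.05. Fold changes are on that log2 scale and understate changes of low genes. No count model was used for the main test. Single pairs of libraries were compared as ratios of RPKM with no test.

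Members, lists, markers and tests were chosen with earlier results of these data known. The values of each library of the operated groups compared were printed for the core subunits, for the 10 called members with the largest fold change in a TRAP against input comparison, for the 3 smallest in a banding comparison, for the largest and smallest of each role group, for the Ndufa4 pair and for assembly factors named Ndufaf; of each single pair of libraries, the 5 highest and 5 lowest ratios were named. The values of 1 member, which stays in all counts and fits, are not reported here. Like-length medians exclude the members, and the replicate SD of a difference comes from the differences between replicates. Alternatives changed the pseudocount (0.1), the filter (none, or 5 RPKM), the scaling, the length trend, the libraries fitted, the replicate block and each replicate in turn; voom on the recovered reads was added after seeing the data. Figures used matplotlib 3.10.9.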

Additional observations from a re-analysis of the deposited data

Results flagged for a closer look

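In hearts without surgery, 35 of the 42 Nduf genes had a TRAP to input ratio below 1 in the Tie2 pair and above 1 in the CAG pair. Opposite directions in the 2 kinds of mice drew attention to these genes. Each ratio rests on 1 TRAP and 1 input library, so the difference was not tested. The marker levels that moved with it are given with the Tie2 values in the report.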

How the results depend on the processing

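In band hearts 28 to 38 and in sham hearts 26 to 35 members were called higher in TRAP under all alternatives run, and 24 members were called higher in both under every one. Members called lower in band TRAP than band input ranged from 0 to 2 as replicates were left out. The excess of the members over genes of like length was 0.43 with a pseudocount of 0.1, 0.68 with no filter, 0.36 with a filter of 5 RPKM, 0.28 by quantile normalization, 0.43 rescaled, 0.43 by voom, 0.28 at like level and 0.46 to 0.50 without single replicates in sham hearts. In band hearts it was 0.67 with no filter, 0.38 with a filter of 5 RPKM, 0.24 by quantile normalization, 0.39 at like level and 0.41 to 0.46 without single replicates. Of band against sham in input it was -0.13 to -0.059 without single replicates. In TRAP RNA of band against sham hearts, 1 member was called higher (Ndufb4) with a pseudocount of 0.1, a filter of 5 RPKM, rescaling, the length trend removed or voom, and 1 lower (Ndufb6) by quantile normalization. Without single replicates that comparison called 0 to 4 higher and 0 to 11 lower, and the interaction 0 to 1 lower. Left out libraries leave a group with 1 sample, assumed to vary like the others. The causes were not tested.

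Directions turned in genes that were not called in the main fit, though some of them were called once a band TRAP library was left out. After rescaling without mitochondrial and haemoglobin reads, sham values were -0.0039 for Ndufv1, -0.20 for Ndufaf1, -0.074 for Ndufa4l2 and -0.015 for Ndufa10, and band values -0.10 for Ndufa10 and -0.047 for Ndufa4l2. Ndufaf1 was at -0.057 in sham hearts with the length trend removed, and Ndufa10 at -0.0947 in band hearts by quantile normalization. Without single replicates, Ndufaf1 ran from -0.10 to 0.11 in sham hearts and from -0.85 to 0.45 in band hearts. In band hearts Ndufs1 ran from -0.67 to 0.14, Ndufa4l2 from -0.13 to 0.48 and Ndufa12 from -0.063 to 0.74.

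All tested genes split into 1938 higher and 3026 lower in band TRAP as deposited, 1068 and 4676 rescaled, 2544 and 1955 by quantile normalization, and 2256 and 1867 with the length trend removed. In sham TRAP the last gave 1787 and 1550. The labels do not say whether a replicate number marks a shared animal. Deviations of replicates from their group means correlated between groups at -0.43 to 0.11 over the tested genes, which cannot settle it. A replicate block gave 33 members higher in band and 33 in sham hearts. The planned edgeR fit was not run; voom was fitted to the recovered reads. Each member had at least 250 reads in every library.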
